A study of Mus musculus with 8 samples.

Results

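Blood vessels of the tongue were followed through 9 genes that mark endothelial cells, the cells that line every vessel: Pecam1, Cdh5, Kdr, Flt1, Tek, Eng, Egfl7, Esam and Vwf. The genes were taken by name, with earlier results of these data known, and all 9 were found among the 19857 genes of the deposited count table. The tongues came from female mice aged 12 months, 4 wild type (WT) and 4 with the A17 allele of PABPN1 on 1 chromosome and a normal allele on the other (A17/+). The series title names the strain as a model of oculopharyngeal muscular dystrophy, which weakens muscles of the eyelids, throat and tongue late in life, and PABPN1 binds the poly(A) tails of RNA in the nucleus. RNA came from cryosections through the middle of the tongue and was read with mcSCRB-seq, a method that marks every RNA molecule at its poly(A) end with a unique molecular identifier (UMI), so that amplified copies are counted once. The libraries are separate animals per the labels, and no treatment is listed.

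Endothelial cells depend on growth factor signals, cell contacts and a surface that controls clotting, and the 9 genes cover these roles. Flt1 and Kdr encode receptors for vascular endothelial growth factor (VEGF), the main signal for vessel growth, and Tek encodes the receptor for angiopoietins, which keep mature vessels stable. Eng encodes endoglin, a co-receptor for ligands of the TGF-beta family. Cdh5, the endothelial cadherin, Pecam1 and Esam hold neighbouring endothelial cells together. Egfl7 encodes a secreted protein of the vessel matrix, and Vwf the clotting factor that endothelial cells store and release. In skeletal muscle, which fills most of the tongue, a dense capillary net surrounds the fibres.

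No difference between A17/+ and WT tongue passed the test for any of the 9 genes. Together they held nearly the same share of library totals in both genotypes. It was 5.86 ± 0.29 per 10000 UMIs in WT and 5.73 ± 0.23 per 10000 in A17/+ (SD, n = 4). With the main scaling (TMM), which the edgeR test uses, the sum leaned the other way, higher in A17/+. Of the 8 genes with enough counts to be tested, 0 were higher and 0 lower at an adjusted p under 0.05 with edgeR, and 0 had an unadjusted p under 0.05. Over all 5066 genes tested in the same fit, 8.94% passed the threshold, 6.34% as higher and 2.61% as lower, and 25.1% had an unadjusted p under 0.05. With library totals in place of the main scaling the calls over all genes split into 279 higher and 289 lower, against 321 and 132, and the median log2 fold change of all genes moved from 0.01 to −0.11. DESeq2 called 0 of the 8 endothelial genes, and limma-trend on the deposited log2 values called 0 of all 9. A mean giving each of the 8 tested genes equal weight lay apart by genotype with the main scaling. It ran from −0.30 to −0.13 in WT and from 0.03 to 0.37 in A17/+. With library totals the genotypes overlapped in that mean, so the comparison of the summed level depends on the scaling.

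The libraries held 205696 to 465014 UMIs in WT and 395061 to 485326 in A17/+, so that the 9 genes together gave 115 to 277 UMIs in a WT library and 220 to 293 in an A17/+ library. Skeletal muscle markers summed to between 75335 and 103187 CPM in WT and between 97262 and 116300 CPM in A17/+, where CPM are the UMIs of a gene scaled to a common library total. Tongue epithelium markers summed to between 8918 and 9522 CPM in WT and between 7163 and 14023 CPM in A17/+, so both tissues of the tongue were present in each library. Salivary gland markers summed to 922 UMIs in WT 1 and to at most 20 in any other library, and the profile of WT 1 was closer to A17/+ 1 (Pearson r across genes 0.927) than to any WT library (at most 0.904). Transcripts of the mitochondrial genome took 4.17% to 6.43% of UMIs in WT and 7.24% to 10.98% in A17/+. The genotype labels cannot be checked from UMIs of Pabpn1, which count its RNA and do not read the altered stretch. Without WT 1, without A17/+ 1 and without both, the endothelial genes called stayed at 0. In RNA from whole tissue, fewer endothelial cells and less RNA per cell cannot be told apart.

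The receptors Flt1, Tek and Kdr gave most of the endothelial UMIs, so the stretches of 250 bases before their start sites are shown, from RefSeq (build GRCm38.p6), 5' to 3' on the strand of the gene. Capitals mark AGGAAG or its reverse complement CTTCCT, a form of the site that factors of the ETS family, central to endothelial genes, can bind. Other forms of that site were not looked for and are unmarked. The stretches are chr5:147726012-147726261 (minus strand), chr5:75978456-75978705 (minus strand) and chr4:94739039-94739288 (plus strand).
Flt1: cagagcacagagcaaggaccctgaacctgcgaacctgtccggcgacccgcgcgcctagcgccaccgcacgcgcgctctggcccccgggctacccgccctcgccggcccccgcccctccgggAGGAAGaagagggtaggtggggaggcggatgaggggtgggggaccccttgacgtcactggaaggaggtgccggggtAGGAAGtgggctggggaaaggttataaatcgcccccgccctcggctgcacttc
Kdr: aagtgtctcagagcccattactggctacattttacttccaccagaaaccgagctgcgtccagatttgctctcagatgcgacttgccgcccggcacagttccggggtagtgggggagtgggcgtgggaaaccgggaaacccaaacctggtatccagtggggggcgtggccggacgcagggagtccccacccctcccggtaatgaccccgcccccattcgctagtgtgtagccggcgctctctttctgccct
Tek: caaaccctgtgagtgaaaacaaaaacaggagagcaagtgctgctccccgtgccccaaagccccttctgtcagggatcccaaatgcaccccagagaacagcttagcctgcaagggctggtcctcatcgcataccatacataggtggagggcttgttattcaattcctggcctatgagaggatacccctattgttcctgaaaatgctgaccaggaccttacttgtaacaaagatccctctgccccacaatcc
Flt1 held 2 matches to this form, on the gene's own strand, and Kdr and Tek held 0. Windows were found for 5 of the 9 genes, of which Eng held 2 matches and Egfl7, with 3 start sites in the table, held 3, 1 and 0. In all, 4 of the 7 windows, from 3 of the 5 genes, had a match, against 29.5% of the 32851 windows of that length in the table. AGATAA and TATAAA were also looked for on both strands. AGATAA matched 0 of the 7 windows, against 9.99% of all windows, and TATAAA matched 1, against 12.4%. The median GC content was 61.6% for the 7 windows and 52.4% for all windows. A match is a description of the letters, and these data did not measure binding.

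Among the receptors, Flt1 (ENSMUSG00000029648, mm10 chromosome 5, 147561604 to 147726011, minus strand) had the highest level. It binds VEGF tightly with weak signalling of its own and limits what reaches Kdr. Its levels were 174, 162, 139 and 179 CPM in WT 1 to 4 and 194, 144, 141 and 171 CPM in A17/+ 1 to 4. The lowest and the highest library of each genotype lay close to those of the other, with means of 163 ± 17.9 and 163 ± 24.9 CPM (SD, n = 4). The fold was 1.00 with a 95% interval from 0.738 to 1.35 (edgeR adjusted p = 1.00). With 450 UMIs in all it was the most precisely measured of the 9 genes. Membrane-bound and secreted forms of Flt1 are counted as 1 gene here.

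Kdr (ENSMUSG00000062960, chromosome 5, 75932827 to 75978458, minus strand) encodes the receptor that carries most of the VEGF signal in endothelial cells. Its levels were 80.2, 77.6, 94.8 and 70.4 CPM in WT 1 to 4 and 107, 110, 119 and 94.1 CPM in A17/+ 1 to 4. A single pair overlapped, A17/+ 4 just below WT 3, and the other A17/+ libraries lay above every WT library. The means were 80.7 ± 10.2 CPM and 107 ± 10.2 CPM (SD, n = 4), a fold of 1.32 with an interval from 0.966 to 1.81. The edgeR adjusted p was 0.255 and the unadjusted p 0.0777, so the difference did not pass.

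Tek (ENSMUSG00000006386, chromosome 4, 94739289 to 94874976, plus strand), the angiopoietin receptor, had 114, 113, 108 and 157 CPM in WT 1 to 4 and 100, 119, 84.8 and 94.1 CPM in A17/+ 1 to 4. A17/+ 2 lay above 3 of the 4 WT libraries and the other A17/+ libraries lay below all of them. The fold was 0.820 with an interval from 0.595 to 1.13 (edgeR adjusted p = 0.449). WT 4, the smallest library, gave the highest value from 29 UMIs, and the counting error alone allows 105 to 226 CPM there.

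Eng (ENSMUSG00000026814, chromosome 2, 32646595 to 32682669, plus strand), the co-receptor endoglin, had too few UMIs to pass the filter, with 11, 4, 11 and 2 in WT 1 to 4 against 5, 14, 4 and 4 in A17/+ 1 to 4. The sums of 28 and 27 UMIs were nearly equal, although the A17/+ libraries were larger in total. In a fit without the filter its log2 fold change was −0.37 with an interval from −1.30 to 0.57 (edgeR adjusted p = 0.717), so the interval includes a fall of 2-fold but not a rise of that size. An exon of Fpgs, on the opposite strand, overlaps Eng, and the strand used in counting is not given in the sources used here. Fpgs had 9 UMIs over the 8 libraries.

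**Figure D1:**
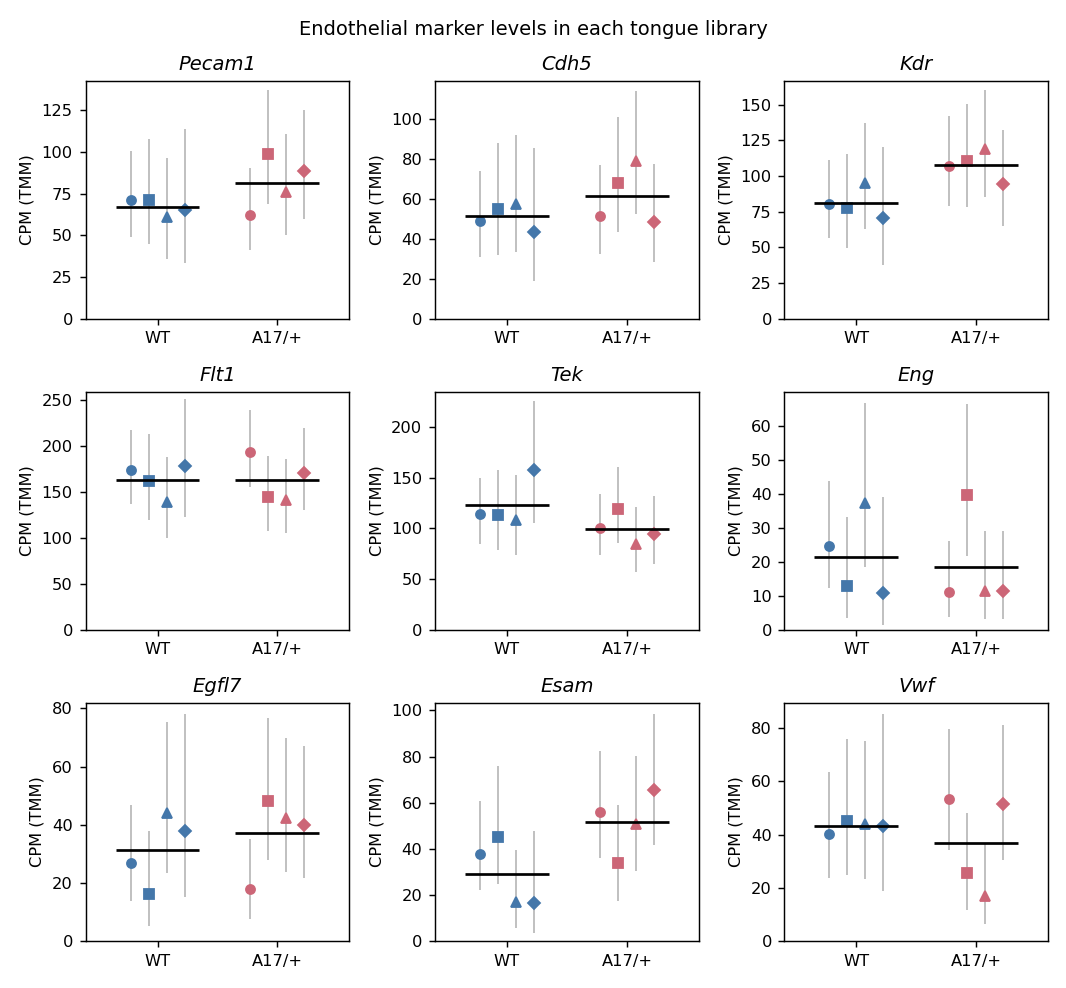
Level of each of the 9 endothelial genes in CPM (linear axes from 0, TMM scaling) in 4 WT (blue) and 4 A17/+ (red) tongue libraries. Circle, square, triangle and diamond are libraries 1 to 4, grey bars the exact 95% Poisson interval of the count, and black lines the group means. The values of both genotypes overlap in each panel, with Kdr and Esam nearest to apart.

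Of the genes of endothelial contacts, Cdh5 (ENSMUSG00000031871, chromosome 8, 104101625 to 104144511, plus strand), the cadherin of endothelial adherens junctions, had 49.03, 54.9, 57.5 and 43.3 CPM in WT 1 to 4. In A17/+ 1 to 4 it had 51.3, 67.8, 79.1 and 48.5 CPM. The A17/+ libraries 2 and 3 lay above WT and the other 2 lay inside its range. The fold was 1.19 with an interval from 0.809 to 1.74 (edgeR adjusted p = 0.599).

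Pecam1 (ENSMUSG00000020717, chromosome 11, 106654217 to 106750628, minus strand), an adhesion molecule that platelets and white blood cells carry too, had 71.3, 71.1, 60.9 and 65.0 CPM in WT 1 to 4. In A17/+ 1 to 4 it had 62.4, 98.8, 76.3 and 88.4 CPM. A17/+ 1 lay inside the WT range and the other A17/+ libraries above it. The fold was 1.20 with an interval from 0.848 to 1.70 (edgeR adjusted p = 0.532).

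Esam (ENSMUSG00000001946, chromosome 9, 37528078 to 37538319, plus strand), a molecule of endothelial tight junctions, had the largest ratio of the 9 genes. Its levels were 37.9, 45.2, 16.9 and 16.3 CPM in WT 1 to 4 and 55.7, 33.9, 50.9 and 65.6 CPM in A17/+ 1 to 4. WT fell into 2 high and 2 low libraries, and A17/+ 2 lay below both high ones. The means of 29.1 ± 14.7 CPM and 51.5 ± 13.2 CPM (SD, n = 4) gave a fold of 1.67 with an interval from 0.999 to 2.78 (edgeR adjusted p = 0.200, unadjusted p = 0.0504). The low WT values rest on 5 UMIs in WT 3 and 3 in WT 4. Its longest coding transcript has 1865 nt. Genes with transcripts under 1000 nt, a class that leaves out Esam, took 4.32% to 6.42% of UMIs in WT and 6.23% to 8.90% in A17/+. With a trend on transcript length removed from each library the Esam log2 fold change was 0.46 in place of 0.74.

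Egfl7 (ENSMUSG00000026921, chromosome 2, 26580014 to 26593120, plus strand), the secreted matrix protein, had 26.7, 16.2, 44.0 and 37.9 CPM in WT 1 to 4. In A17/+ 1 to 4 it had 17.8, 48.0, 42.4 and 39.9 CPM. A17/+ 2 lay above the WT range and the other A17/+ libraries inside it, with A17/+ 1 the lowest of its genotype. The log2 fold change was 0.26 with an interval from −0.55 to 1.07 (edgeR adjusted p = 0.724). It was 0.00 without WT 2, and its sign turned, to −0.30, with the length trend removed. Its longest coding transcript, 1391 nt, was the shortest of the 9 genes. An exon of Agpat2, on the opposite strand and with 15 UMIs in all, overlaps Egfl7.

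Vwf (ENSMUSG00000001930, chromosome 6, 125546774 to 125686679, plus strand), the clotting factor, had 40.1, 45.2, 44.0 and 43.3 CPM in WT 1 to 4 and 53.5, 25.4, 16.95 and 51.3 CPM in A17/+ 1 to 4. The WT libraries nearly coincided, whereas A17/+ 1 and 4 lay above all of them and A17/+ 2 and 3 below all of them. The fold was 0.871 with an interval from 0.521 to 1.45 (edgeR adjusted p = 0.775). The WT spread of 5.07% of the mean was below the 28.7% that counting error alone gives at these UMI numbers, and the A17/+ spread of 49.9% was above its 30.6%. Without A17/+ 3 the sign turned, to a log2 fold change of 0.03.

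Platelets and their precursors also carry Vwf and Pecam1. The 6 platelet genes in the table summed to 6 to 9 UMIs in WT and 6 to 18 in A17/+, and 0 of them passed the filter. Of the defining platelet genes, Gp1ba, Gp1bb and Gp9 had 0 or 1 UMI in every library, and Pf4 had at most 2 in WT and 1 to 9 in A17/+. Itga2b had 1 to 3 UMIs and Itgb3 2 to 7 in each library of either genotype. Red cell genes summed to 4 to 10 UMIs in WT and to 45 to 472 in A17/+, highest in A17/+ 2. Hbb-bs, a globin, rose (log2 fold change 5.24, edgeR adjusted p = 0.0215), a call lost with no filter and without any 1 of the 4 WT libraries or A17/+ 4. The part of blood cells in the Vwf and Pecam1 levels was not tested.

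**Figure D2:**
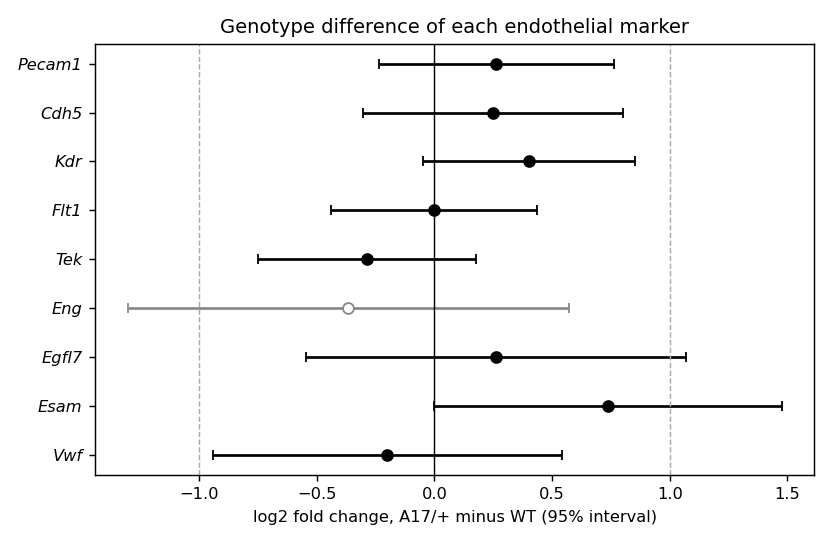
Log2 fold change (A17/+ minus WT) of each endothelial gene with its 95% interval, from the edgeR fit over all genes, with Eng (open grey point) from the fit without a filter. Dashed lines mark 2-fold. Each interval includes 0, and those of Eng, Egfl7 and Esam reach beyond a dashed line.

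The intervals give the size of difference that these libraries allow. For 6 of the 8 tested genes, Pecam1, Cdh5, Kdr, Flt1, Tek and Vwf, the 95% interval lay within 2-fold in either direction, and for Egfl7 and Esam it did not. Of the 8 log2 fold changes 5 were positive and 3 negative, with a median of 0.25, beside a median of 0.01 over all genes tested. In absolute size the median was 0.26 for the endothelial genes and 0.33 for all genes. For no tested endothelial gene did the 4 values of a genotype lie on 1 side of the other 4 (0 of 8), and over all genes this held for 14.6%, with A17/+ the lower in 6.08%. The spread between animals was near the counting error: it was below the value that counting alone gives for 5 of the 9 genes in WT and 2 of the 9 in A17/+, and at most 1.75 times that value.

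The levels were also put in order. Since a UMI stands for 1 molecule caught at its 3' end, CPM values were compared between genes without a division by length, and capture may still differ between genes. In WT the order of mean levels was Flt1, Tek, Kdr, Pecam1, Cdh5, Vwf, Egfl7, Esam and Eng, from 163 to 21.4 CPM. Tek and Kdr did not overlap in WT, nor did Pecam1 and Cdh5, while all other neighbours in that order overlapped over the libraries. In A17/+ the order was Flt1, Kdr, Tek, Pecam1, Cdh5, Esam, Egfl7, Vwf and Eng, from 163 to 18.3 CPM. There Flt1 did not overlap Kdr, and all other neighbours overlapped.

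The ratio of 2 genes within a library does not depend on how libraries are scaled. There was 0.706, 0.686, 0.875 and 0.448 Kdr UMI per Tek UMI in WT 1 to 4 against 1.07, 0.929, 1.40 and 1.00 in A17/+ 1 to 4. The A17/+ ratios thus lay above all WT ratios, and the same held for Esam over Vwf, at 0.375 to 1.00 in WT and 1.04 to 3.00 in A17/+. These were 2 of the 28 pairs that the 8 tested genes form, or 7.14%, named after their values were seen, and 14.8% of all pairs of tested genes lay apart in this way. The share of separated pairs among the endothelial genes was thus not above that of all genes.

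**Figure D3:**
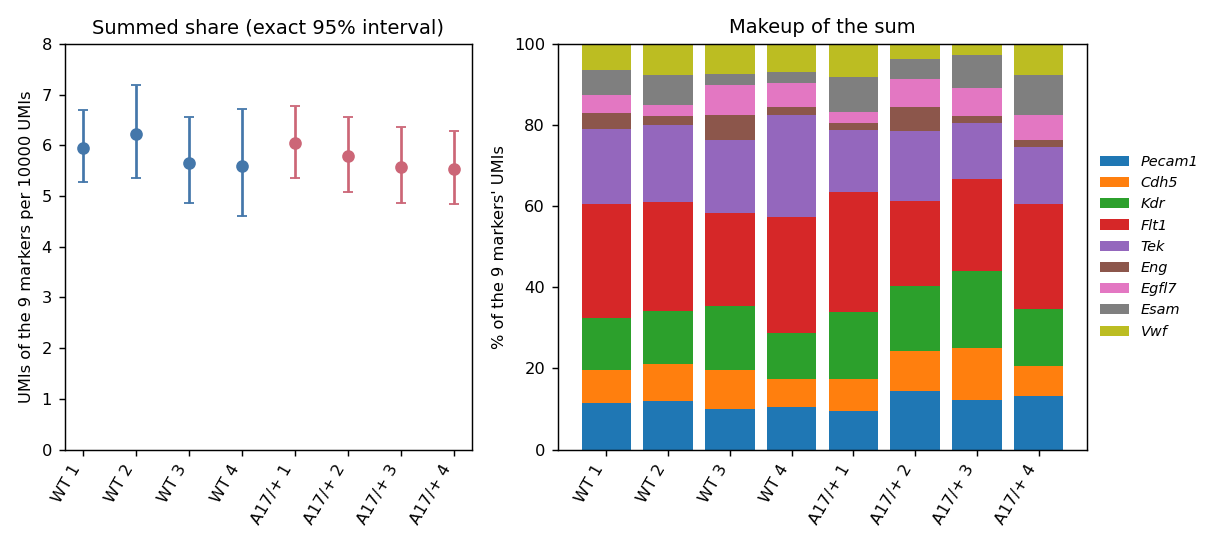
Left, UMIs of the 9 endothelial genes per 10000 UMIs of the library, with the exact (Clopper-Pearson) 95% interval, in WT (blue) and A17/+ (red). Right, percent of those UMIs from each gene. The sums lie between 5.53 and 6.22 in all 8 libraries, and Flt1 takes the largest part in each.

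The summed share was 5.96, 6.22, 5.66 and 5.59 per 10000 UMIs in WT 1 to 4 against 6.04, 5.79, 5.57 and 5.53 in A17/+ 1 to 4. The exact 95% binomial interval ran from 4.62 to 6.71 in WT 4, the smallest library, and from 5.37 to 6.77 in A17/+ 1, the largest, and covers counting error only. All 8 shares thus lay within the interval of WT 4. The sum leaned the other way with the main scaling, at 610 ± 12.0 CPM in WT against 656 ± 27.0 CPM in A17/+ (SD, n = 4), where the highest WT library, at 623, lay above the lowest A17/+ library, at 622. Without mitochondrial transcripts and the 10 most abundant genes in the total it was 8.38 ± 0.249 and 8.51 ± 0.518 per 10000 (SD, n = 4). A mean in which each of the 8 tested genes counts equally (log2 CPM, standardised per gene over the 8 libraries) lay at −0.30 to −0.13 in WT and 0.03 to 0.37 in A17/+ with the main scaling, so that the genotypes did not overlap. With library totals, a scaling added for this mean after the data were seen, it lay at −0.35 to 0.32 in WT and −0.08 to 0.10 in A17/+, so that they overlapped. With the main scaling 0 of the 8 tested endothelial genes separated the genotypes alone, beside 14.6% of all genes tested. No such rate was computed for a mean of several genes. Within the sum Flt1 took 23.0% to 28.7% in WT and 20.99% to 29.7% in A17/+, and Tek took 18.0% to 25.2% in WT and 13.6% to 17.3% in A17/+, a range named after its values were seen. The 25.2% was that of WT 4, from 29 UMIs, and the shares of every other endothelial gene overlapped. How often such shares lie apart over all genes was not computed, and in CPM 14.6% of all genes tested did.

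Other genes of endothelial cells and of the pathways that these receptors serve were read from lists, and most did not pass either. Of 30 further genes found throughout the endothelium, 11 were tested and 0 passed, with a median log2 fold change of 0.35. The smallest p-values there belonged to Cd34, a surface glycoprotein of endothelial and progenitor cells, with 52.0 ± 19.5 CPM in WT against 93.5 ± 22.1 CPM in A17/+ (SD, n = 4; edgeR adjusted p = 0.103), and Cav1, the coat protein of caveolae, with a log2 fold change of 0.55 (adjusted p = 0.146). Cd34 had an adjusted p of 0.0470 without A17/+ 1 and 0.0142 without both libraries numbered 1. Many defining genes of the endothelium were near the limit of detection: Cldn5, a tight junction protein, had 0 to 4 UMIs in a library, and Sox18 and Tal1, transcription factors, had 0 in most.

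The ligands and partners of Flt1 and Kdr showed no call. Of 14 genes of VEGF ligands, receptors and oxygen sensing, 9 were tested and 0 passed, with a median of 0.25. Vegfa, the main ligand, had a log2 fold change of 0.25 (edgeR adjusted p = 0.581) and Vegfb one of −0.19 (adjusted p = 0.724), both named after their values were seen. Epas1, an oxygen-sensing transcription factor abundant in endothelium, had 246 ± 52.7 CPM in WT against 385 ± 101 CPM in A17/+ (SD, n = 4; adjusted p = 0.0761). Its adjusted p was 0.0451 without WT 1 and 0.0123 without A17/+ 2. Nrp2, a co-receptor, had 107 ± 28.7 CPM and 68.0 ± 15.9 CPM (SD, n = 4; edgeR adjusted p = 0.114), with the 4 A17/+ values below the 4 WT values. That order held for 6.08% of all genes tested.

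Of 8 genes of the angiopoietin and Tie pathway around Tek, 3 were tested and 0 passed. Ptprb, a phosphatase that restrains the Tek receptor, had a log2 fold change of 0.36 (edgeR adjusted p = 0.423), and Akt1, a kinase downstream of it, 0.08 (adjusted p = 0.901), with a sign that turned in 5 of 18 alternatives. Of 20 genes around endoglin in BMP and TGF-beta signalling, 8 were tested and 0 passed, with a median of −0.10. Smad5, which passes on BMP signals, had −0.43 (adjusted p = 0.309), and Tgfbr2, a TGF-beta receptor, −0.23 (adjusted p = 0.422).

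Among partners of the junction molecules, 2 genes fell and 0 rose of 10 tested out of 13. Over all genes tested 2.61% fell and 6.34% rose. Cgn, cingulin of tight junctions, fell from 153 ± 30.4 to 71.1 ± 13.2 CPM (SD, n = 4; log2 fold change −1.08, SE 0.23, edgeR adjusted p = 0.00914), and Magi1, a junction scaffold, from 117 ± 32.0 to 57.2 ± 11.4 CPM (log2 fold change −1.02, SE 0.26, adjusted p = 0.0197). The 4 A17/+ values of both lay below the 4 WT values, as for 6.08% of all genes tested. Epithelia make both proteins too. Of the 6 tongue epithelium genes, all tested, Krt76, a keratin, fell (log2 fold change −0.72, adjusted p = 0.0132) and 0 rose, and their part in the junction genes was not tested. Magi1 missed the threshold without WT 2 (0.0672), WT 3 (0.0601), A17/+ 3 (0.0690) or A17/+ 4 (0.0699).

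Of 9 genes linked to capillaries 4 were tested, and 2 rose and 0 fell, beside 6.34% and 2.61% of all genes tested. Fabp4, a fatty acid carrier of capillary endothelium and of fat cells, rose from 14.6 ± 5.06 to 91.1 ± 25.2 CPM (SD, n = 4; log2 fold change 2.68, SE 0.35, edgeR adjusted p = 0.00187). Cd36, a fatty acid transporter of capillaries, muscle fibres and fat cells, rose from 199 ± 30.3 to 367 ± 76.0 CPM (SD, n = 4; log2 fold change 0.87, SE 0.20, adjusted p = 0.0108). With the length trend removed the log2 fold change of Fabp4, whose longest coding transcript has 896 nt, was 1.74 and still passed. The adjusted p of Cd36 was 0.0560 without WT 3. The 5 fat cell genes in the table, a list added after the data were seen, summed to 0 to 2 UMIs in WT and 0 to 10 in A17/+. Of 8 skeletal muscle genes 4 rose (Acta1, Ckm, Tnnt3 and Des) and 0 fell, Tnnt3 missing the threshold with the length trend removed (0.284). Their part in the level of Cd36 was not tested, nor was that of any other cell type in Cd36 or Fabp4.

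**Figure D4:**
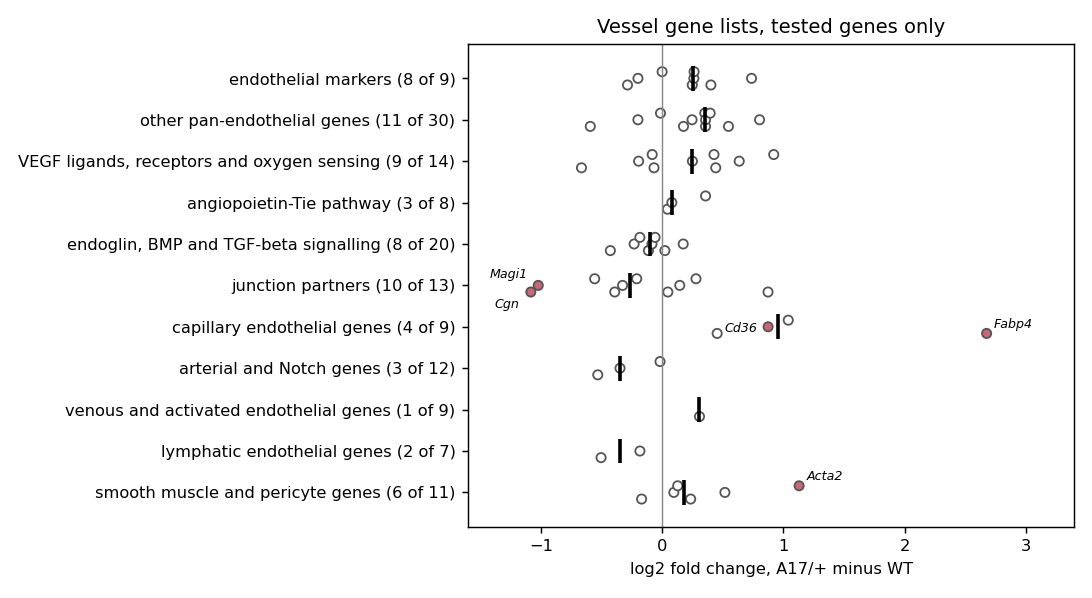
Log2 fold change (A17/+ minus WT) of each tested gene of 11 vessel gene lists, with the number tested of the number listed. Filled points passed an adjusted p of 0.05 and are named, open points did not, points are offset vertically for legibility only, and black bars are list medians. The endothelial genes lie between −0.29 and 0.74 with no filled point.

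Few genes that set apart kinds of vessel passed the filter. Of 12 arterial and Notch genes 3 were tested and 0 passed, and Jag1, a Notch ligand, had a log2 fold change of −0.53 (edgeR adjusted p = 0.318), with Efnb2 of arterial identity at −0.35 (adjusted p = 0.603). Of 9 venous and activated genes 1 was tested, Nr2f2 of venous identity (0.30, adjusted p = 0.671). Of 7 lymphatic genes 2 were tested, Mmrn1 (−0.50, adjusted p = 0.315) and Lyve1 (−0.18, adjusted p = 0.724), and neither passed. The sign of Lyve1 turned, to 0.10, in 1 of 18 alternatives. Of 6 tested genes of smooth muscle and pericytes, the cells wrapped around vessels, 1 rose and 0 fell, beside 6.34% rising over all genes. The gene that rose was Acta2, smooth muscle actin, from 65.2 ± 16.1 to 144 ± 44.7 CPM (SD, n = 4; edgeR adjusted p = 0.0169). It missed the threshold without WT 2 (0.0662), WT 3 (0.0759), A17/+ 3 (0.0600) or A17/+ 4 (0.0767) and with the length trend removed (0.0506).

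Markers of other cell types stood as follows. Macrophage genes summed to 71.1 to 93.6 CPM in WT and 127 to 143 CPM in A17/+, although 0 of the 2 tested passed, Mrc1 at 0.70 (edgeR adjusted p = 0.214) and Cd163 at 0.34 (adjusted p = 0.615), whose sign turned in 2 of 17 alternatives. Fibroblast genes had 2 of 6 higher, Dcn (log2 fold change 2.24, edgeR adjusted p = 0.0123) and Col3a1 (1.31, adjusted p = 0.0129). Over all genes tested 6.34% were higher. Dcn had an adjusted p of 0.0519 without WT 4 and Col3a1 one of 0.0557 without WT 3. These differences were not tested against those of the endothelial genes.

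Other genes were ranked by the likeness of their pattern over the 8 libraries to that of the endothelial genes. Likeness was the Pearson r between log2 CPM and that equal-weight mean with the main scaling, over 2768 genes with a mean of at least 20 UMIs. The 5 highest were Fabp3, a fatty acid carrier (0.961), Plac9a (0.949), Cox6c, a subunit of cytochrome oxidase (0.937), Mb, myoglobin (0.937), and Slc25a4, the mitochondrial carrier of ADP and ATP (0.937). All 5 rose in A17/+, by log2 fold changes from 1.17 to 3.12, and the 8 points share genotype, library depth and scaling. That mean lay apart by genotype with this scaling, so the ranking favours genes that differ between the genotypes. It was not run with library totals, where the mean overlapped. Plac9a missed the threshold with the length trend removed (edgeR adjusted p = 0.0786) and without WT 2 (0.0508), WT 3 (0.0636) or A17/+ 4 (0.0591).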

How the data were processed

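The authors deposited 1 table of UMI counts, with a row per Ensembl identifier, and for every library a file of log2 values over 10709 genes, whose normalization is not given in the sources used here. The submitters' processing notes name cutadapt 2.10, STAR 2.7.5a, UMI-tools 1.1.1, HTSeq and the build mm10, and settings, strand and annotation release are not given in the sources used here. Symbols, positions and transcript lengths came from GENCODE M21 (mm10), which held 19677 of the 19857 identifiers.

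The counts were filtered with filterByExpr (minimum count 10, minimum total 15; 5066 genes kept), TMM-scaled, and tested for genotype with edgeR 4.0.16 (R 4.3.3), using its quasi-likelihood fit in robust mode. The Benjamini-Hochberg adjustment ran over all genes tested, with a threshold of 0.05. Fold changes are A17/+ over WT, CPM refer to the UMIs of the tested genes after TMM scaling, and intervals come from the test's own standard error. The fit was tested on simulated data. Depth was 205696 to 485326 UMIs, so a gene at 10 CPM is a few molecules. Poisson and binomial intervals cover counting error only.

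The endothelial genes, the other gene lists and the alternatives were chosen with earlier results of these data known. Named are all 9 members, and of each other list up to 4 genes past the threshold, or the 2 with the smallest p where none passed, and the 5 most alike genes, leaving out predicted genes. Sets of capillary genes without Cd36 and Fabp4 and of fat cell genes were added after the data were seen. Other names are said to be chosen after their values were seen or stand for low counts. Alternatives were other scalings, filters, DESeq2 1.42.0, limma-trend (limma 3.58.1) on the deposited log2 values, the replicate number as a block, a length trend removed, thinned counts and leaving out libraries.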

Additional observations from a re-analysis of the deposited data

Results flagged for a closer look

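Among the endothelial genes, a library stood far from the other 3 of its group for 2 values: Tek in WT 4, at 157 CPM against 108 to 114 CPM in WT 1 to 3, and Eng in A17/+ 2, at 39.5 CPM against 11.1 to 11.4 CPM in the other A17/+ libraries. The Tek value rests on 29 UMIs and the Eng value on 14. Of 24 sets of 4 values looked at this way, chance flags about 1 in 20. Without WT 4 the log2 fold change of Tek was −0.21 in place of −0.29.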

How the results depend on the processing

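Under all 18 alternatives, other scalings, filters, tools and left-out libraries, 0 endothelial genes were higher and 0 lower, with each left-out library giving 0 as well, and the median log2 fold change of the tested ones ran from 0.12 to 0.35. Unadjusted p fell under 0.05 for 1 gene with limma-trend and without WT 1, WT 2 or A17/+ 2. The sign of the log2 fold change held throughout for Cdh5, Kdr, Tek and Esam. It turned for Pecam1 with thinned counts (−0.10), and for Egfl7 and Vwf as given in the report. Flt1 ran from −0.15 to 0.14. Eng was tested with no filter and with limma-trend (−0.28), and Egfl7 could not be fitted with thinned counts. The log2 ratio of the summed share, −0.03 over library totals, was 0.02 without mitochondrial transcripts and the 10 most abundant genes in the total, a move smaller than the spread between WT libraries. The calls over all genes, 321 higher and 132 lower, ran from 172 to 695 and from 38 to 383, lowest in both without WT 3 and highest with both libraries numbered 1 left out (695) and without WT 1 (383). With no filter they were 615 and 238, with limma-trend 538 and 259, and with the length trend removed 265 and 251. The number of genes tested differed between the alternatives, and the percent called over all genes was not computed for them. Where few genes were called at all, as without WT 3, a count of 0 endothelial genes says little about stability.

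With the replicate block, Esam had a log2 fold change of 0.75 and 0 endothelial genes passed. The calls over all genes were then 311 higher and 99 lower. Nothing in the labels ties libraries of equal number to each other, and the deviations of same-numbered libraries correlated between −0.16 and 0.07. Depth limits Eng and Egfl7 most, with 55 and 91 UMIs in all.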

Other observations

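The 9 capillary genes summed to 338 to 439 CPM in WT and 689 to 795 CPM in A17/+, and with library totals to between 3.18 and 4.47 per 10000 UMIs in WT and between 5.82 and 7.29 in A17/+, so that the genotypes lay apart with both scalings. This was not particular to capillary genes. The sums of the macrophage and red cell genes also lay apart with both scalings, higher in A17/+, and that of the junction partners did so as the lower. Without Cd36 and Fabp4, a choice made after the data were seen, the other 7 capillary genes summed to 141 to 217 CPM in WT and 240 to 308 CPM in A17/+. With library totals these 7 overlapped, at 1.26 to 2.25 per 10000 in WT and 2.15 to 2.60 per 10000 in A17/+. Of the 7, named here after their values were seen, Cd300lg, a capillary surface molecule below the filter, had 5, 6, 2 and 3 UMIs in WT 1 to 4 against 12, 9, 12 and 12 in A17/+ 1 to 4. Rgcc, a regulator of the cell cycle, had 9, 9, 3 and 1 UMIs in WT 1 to 4 against 18, 13, 12 and 12 in A17/+ 1 to 4 (edgeR adjusted p = 0.106). These UMIs are not scaled, and the WT libraries were the smaller on average. Car4, a carbonic anhydrase, overlapped, with 8, 4, 9 and 1 UMIs in WT 1 to 4 against 15, 5, 7 and 7 in A17/+ 1 to 4. Aqp1, a water channel, had 59, 39, 29 and 19 UMIs in WT 1 to 4 against 71, 68, 39 and 61 in A17/+ 1 to 4 (edgeR adjusted p = 0.221). The capillary genes and the 9 general endothelial markers were not tested against each other.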
